A study of Saccharomyces cerevisiae with 18 samples.

Results

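The small-subunit processome is the large nucleolar particle that forms on the precursor of ribosomal RNA while it is being transcribed and that makes the first cuts on the way to the small, 40S, ribosomal subunit. It was followed here through 40 yeast genes, chosen by name as protein subunits of this particle or as factors of early 40S assembly. All 40 were measured, among 5270 named nuclear genes tested. The U3 small nucleolar RNA, carried by its own set of proteins, pairs with the pre-rRNA inside the particle. Protein modules known as UTP-A, UTP-B, UTP-C and the Mpp10 complex join in steps, together with helicases, GTPases and methyltransferases that remodel the RNA. Making ribosomes is among the costliest tasks of a growing yeast cell, and genes of this kind are widely known to respond to nutrients.

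The time-course used wild-type Saccharomyces cerevisiae, labelled strain BY4742 and wt-matA, in 2 independent cultures (a and b) that had been grown until their glucose was gone and were then put into fresh glucose medium. RNA was taken right after the transfer (0 min), then early on (3, 7.5 and 15 min), at 30 and 60 min, and late (110, 150 and 300 min), which gave 18 two-colour arrays, 1 for each culture and time. These arrays hold no culture kept in spent medium and no mutant or drug, so each later time is set against 0 min of the same cultures. Every array also carried the same reference pool of wild-type RNA, and a value is the log2 ratio of sample to reference, so that 1 stands for a doubling over the pool. Each array was centred on its own genes. A level of 0, called the level of the pool here, is thus the middle of the genes and not an equal amount of RNA. Levels below are on this scale.

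Mating type markers did not match the strain name: BY4742 is by background an alpha strain, whereas the 4 alpha-cell genes measured had a median log2 ratio between -5.06 and -4.16 and the 6 a-cell genes one between 2.33 and 4.27 on 17 of the arrays. Relative to the reference pool, both match the label wt-matA. The remaining array, 0 min of culture a, had 4.69 for the alpha-cell genes and -2.14 for the a-cell genes when read by its dye label. By the labels, sample RNA of culture a carried Cy3 at the 8 later times and that of culture b Cy5, but at 0 min it carried Cy5 in both cultures, and across all genes tested the ratios of these 0 min arrays correlated at r = -0.917. The direction of this array is thus not settled by its label. With the sign reversed these medians were -4.69 and 2.14, the signs seen on the other 17 arrays. The ratios of this array were turned (sign reversed) for the values given first. Counts of members against 0 min are also given as labelled and without this array. With the array turned, culture and dye cannot be told apart, since culture a is then in Cy3 throughout. All 1440 readings of the members' spots were above local background. The number of arrays limits the precision, and p-values measure the spread between these 2 cultures.

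Right after the transfer, reading culture a turned, most members stood below the reference pool on the scale of each array's own genes. On that scale all of them stood above it 3 min later. In RNA from a whole culture, a change in all cells and a larger change in some of them cannot be told apart. The median log2 ratio of the 40 members was -0.45 (culture a, turned, or 0.45 as labelled) and -0.25 (culture b) at 0 min, 0.87 and 0.81 at 3 min, 0.84 and 0.92 at 7.5 min, 0.83 and 0.84 at 15 min, and 0.95 and 0.88 at 30 min. It was 0.52 and 0.49 at 60 min, 0.32 and 0.29 at 110 min, 0.34 and 0.35 at 150 min and 0.33 and 0.26 at 300 min. With each array centred on its own genes, the members' median therefore made a plateau between 3 and 30 min. The plateau arrays (0.81 to 0.95) and those from 60 min on (0.26 to 0.52) did not overlap. Spots for control RNA added to the total RNA (external controls) had their own medians. These were 0.36 and 0.64 (cultures a and b) at 3 min and 0.056 and 0.15 at 60 min. A shift to them would lower the 3 min arrays more than the 60 min arrays, so the lack of overlap depends on the scaling. At 0 min only 5 members in culture a (turned) and 7 in culture b were above 0, whereas all 40 were above 0 on every array from 3 to 30 min, and 36 to 40 on each array after that. Counted by the mean of both cultures, 11 members had their highest level at 3 min, 6 had it at 7.5 min, 2 had it at 15 min and 21 had it at 30 min, and none peaked later. Median steps of the members between these times were 0.02, -0.04 and 0.09, beside median gaps between cultures of 0.13 to 0.15. The split among these 4 times is thus a description only. The members' levels by time are plotted by group.

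**Figure D1:**
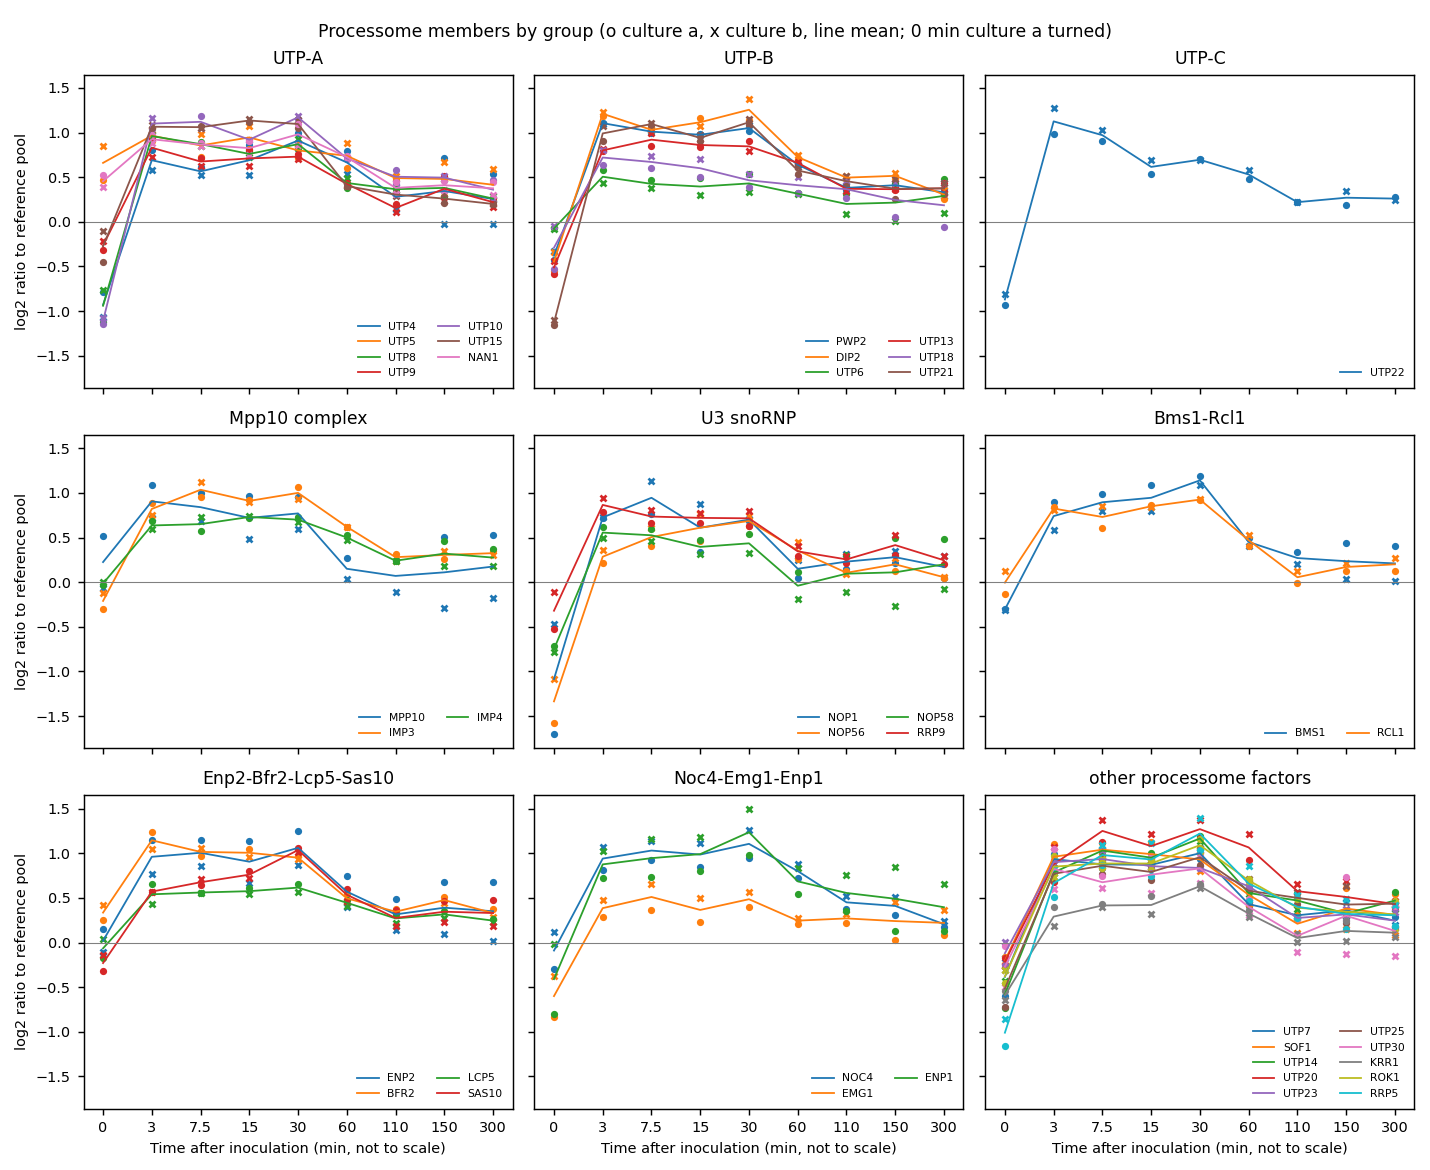
log2 ratio to the reference pool (y axis) of the 40 members at the 9 times (x axis, evenly spaced, in min), in 9 panels by group, with culture a as circles, culture b as crosses and their mean as a line. With each array centred on its own genes, all members lie above 0 on every array from 3 to 30 min, and 5 (culture a, turned) and 7 (culture b) do at 0 min.

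Each time was compared with 0 min in 1 linear model over all genes (limma), and called means a fold change over 1.7 with a p under 0.01 after Benjamini-Hochberg adjustment, the thresholds that the methods use. At 3 min 33 of the 40 members were called higher, against 12.2% of all genes tested. The counts were 31 at 7.5 min (14.6% of all genes), 32 at 15 min (15%) and 32 at 30 min (17.4%). They then were 21 at 60 min (19% of all genes) and 16 at 110 min (19.9%), followed by 15 at 150 min (19.7%) and 13 at 300 min (19.3%). The share of members called was thus far above that of all genes up to 30 min and came closer to it at the end, while that of all genes lay between 12.2% and 19.9% throughout. With the array turned no member was called lower at any time, and at an unadjusted p under 0.05 none was lower either. The members' median log2 fold change at 3, 30 and 300 min was 1.13, 1.24 and 0.60, beside -0.01, -0.01 and 0.03 over all genes tested. At 30 min all 40 members had a positive fold change in both cultures, whereas 2600 of the 5270 genes had a positive one in the fit.

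Without the 0 min array of culture a, 28 members were called at 3 min (9.51% of all genes), 28 at 7.5 min (11.8%), 27 at 15 min (12%) and 31 at 30 min (14.7%). Later the counts were 15 at 60 min (16.6%) and 12 at 110 min (17.3%), followed by 11 at 150 min (17.4%) and then 9 at 300 min (17%). All of these were also called with the array turned, except 2 of the 11 at 150 min. A fit of only the times compared, with the array turned, called 20 members at 3 min and 8 at 300 min. The share of all genes called in that smaller fit is not given here, so these counts are not set against a background. As labelled, the 2 opposite 0 min arrays are averaged, and 5 members were called at 3 min (1.97% of all genes), 7 at 7.5 min (2.33%), 4 at 15 min (1.44%) and 8 at 30 min (1.52%). Read that way the 8 at 30 min were UTP15, PWP2, DIP2, IMP3, RCL1, SAS10, NOC4 and UTP20, all of them also called with the array turned and without it. From 60 min on limma called no member as labelled, with 0.133% of all genes called at 60 min and 0% at 110 min, 0% at 150 min and 0% at 300 min. At an unadjusted p under 0.05 (limma), 16, 1 and 2 members were higher at 60, 110 and 150 min, beside 306, 51 and 67 of all 5270 genes. At 300 min 1 member was higher at such a p, not set against all genes here. The members' median log2 fold change as labelled stayed positive, with 0.74 at 3 min, 0.86 at 30 min and 0.23 at 300 min.

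**Figure D2:**
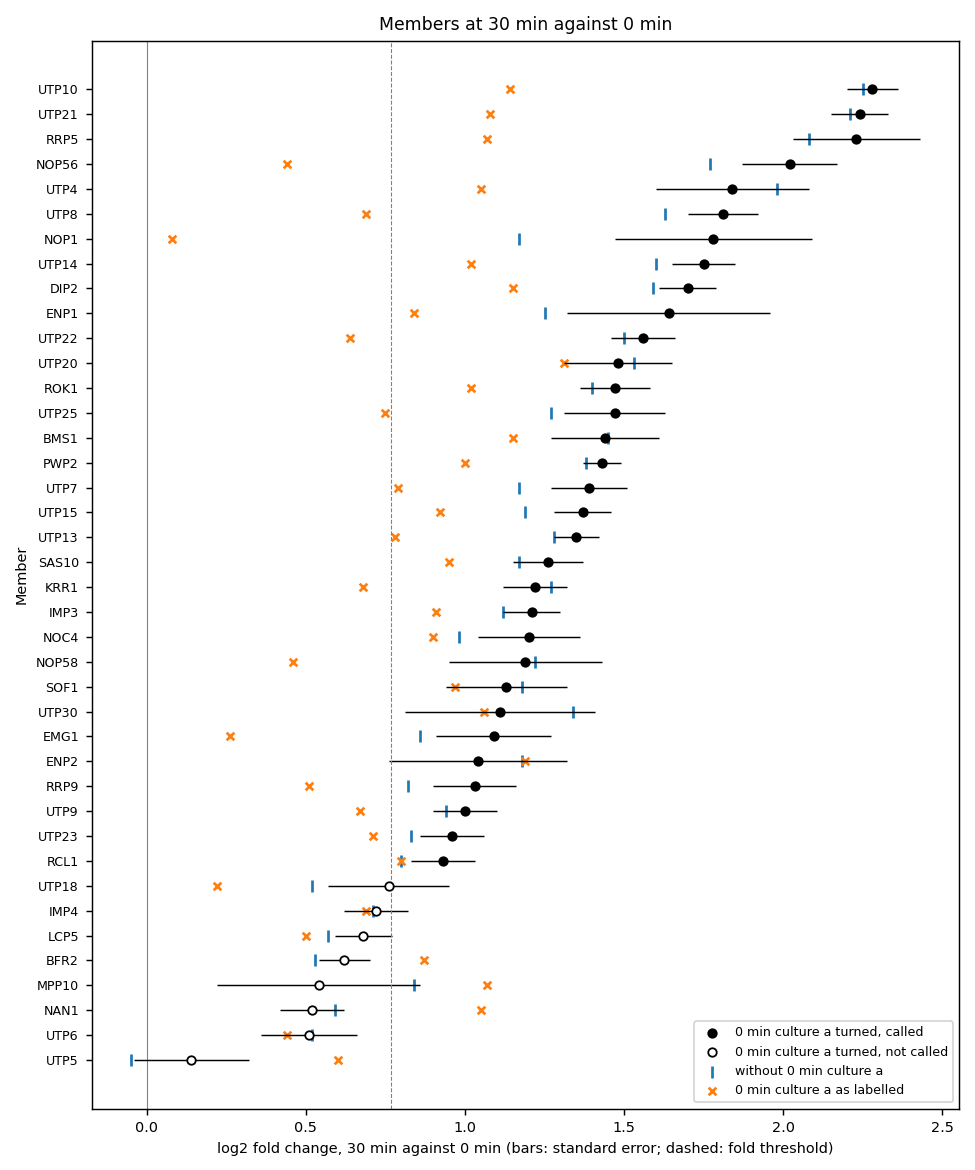
log2 fold change at 30 min against 0 min (x axis) of each member (y axis, largest at the top), with culture a at 0 min turned (circles, filled where called, bars for the standard error), left out (blue ticks) and as labelled (orange crosses), and the fold threshold dashed. Values reach from 0.14 for UTP5 to 2.28 for UTP10 with the array turned, and 32 circles are filled.

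In the groups that follow, "rose" stands for a call against 0 min with this array turned, and largest and smallest refer to 30 min against 0 min read the same way. The UTP-A subcomplex is the first to bind the nascent pre-rRNA and is also needed for full transcription of the ribosomal DNA. Of its 7 genes, UTP4, UTP8, UTP9, UTP10 and UTP15 rose at 30 min, while UTP5 and NAN1 (Utp17) were not called at any time. UTP10, which encodes a large helical-repeat scaffold, had the largest change of all 40 members at 30 min, both with the array turned and without it. Its log2 ratios in cultures a and b were -1.14 and -1.08 at 0 min, 1.04 and 1.16 at 3 min, 1.19 and 1.05 at 7.5 min, 0.92 and 0.92 at 15 min, 1.15 and 1.19 at 30 min, 0.70 and 0.72 at 60 min, 0.58 and 0.43 at 110 min, 0.48 and 0.51 at 150 min and 0.47 and 0.25 at 300 min. Both 0 min arrays were the lowest by far, and the arrays of 3 to 30 min did not overlap with those of 60 min and later. The log2 fold change of UTP10 against 0 min was 2.21 ± 0.08 (SE) at 3 min, 2.28 ± 0.08 at 30 min (adjusted p = 1.1e-09, limma) and 1.47 ± 0.08 at 300 min. As labelled UTP10 had 1.14 at 30 min and was called at no time, and UTP20 then had the largest change (1.31). At 300 min UTP21 was above UTP10 with the array turned and without it. UTP5 had the smallest change of the 40 at 30 min, and with the array turned it already stood above the pool at 0 min. Its values in cultures a and b were 0.47 and 0.85 at 0 min, 0.90 and 1.03 at 3 min, 0.73 and 0.98 at 7.5 min, 0.82 and 1.07 at 15 min, 0.72 and 0.88 at 30 min, 0.60 and 0.88 at 60 min, 0.47 and 0.51 at 110 min, 0.29 and 0.67 at 150 min and 0.24 and 0.59 at 300 min. Culture b was above culture a at every time, and the arrays of 30 min (0.72 and 0.88) overlapped with those of 0 min (0.47 and 0.85), with a log2 fold change of 0.14 ± 0.18 (adjusted p = 0.501, limma). Leaving that array out, UTP5 had -0.05 at 30 min, and as labelled 0.60, where NOP1 of the U3 particle was the smallest of the 40 (0.08). NAN1 was likewise above the pool at 0 min in the turned reading, at 0.52 and 0.39 in cultures a and b, and its log2 fold change at 30 min was 0.52. UTP8, whose protein is also known from the export of tRNA, had 1.81 at 30 min, UTP4 had 1.84, UTP15 1.37 and UTP9 1.0. With the array turned the members of this 1 subcomplex thus spanned the whole range of the 40 genes, whereas as labelled they lay between 0.60 and 1.14 and UTP15 alone was called at 30 min.

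UTP-B is built of WD-repeat proteins and the helical-repeat protein Utp6, and it contacts the U3 RNA and the 5′ spacer of the pre-rRNA. At 30 min PWP2 (Utp1), DIP2 (Utp12), UTP13 and UTP21 rose, whereas UTP6 and UTP18 were not called. UTP21 had the largest change in the group. In cultures a and b its log2 ratios were -1.16 and -1.10 at 0 min, 0.91 and 1.07 at 3 min, 1.08 and 1.11 at 7.5 min, 0.91 and 0.97 at 15 min, 1.08 and 1.15 at 30 min, 0.54 and 0.61 at 60 min, 0.40 and 0.51 at 110 min, 0.26 and 0.48 at 150 min and 0.31 and 0.44 at 300 min. The cultures lay within 0.22 of each other at every time, and no array of 0 min came near a later one. UTP21 had a log2 fold change of 2.24 ± 0.09 (SE) at 30 min (adjusted p = 1.28e-09, limma) and 1.5 ± 0.09 at 300 min. UTP6 had the smallest change in the group, and its level moved little. Its ratios were -0.07 and -0.08 at 0 min, 0.58 and 0.43 at 3 min, 0.47 and 0.38 at 7.5 min, 0.49 and 0.30 at 15 min, 0.53 and 0.33 at 30 min, 0.32 and 0.31 at 60 min, 0.31 and 0.09 at 110 min, 0.42 and 0.01 at 150 min and 0.48 and 0.10 at 300 min. All later arrays lay above both 0 min arrays, if only by a little in culture b at 110, 150 and 300 min, and the log2 fold change of UTP6 at 30 min was 0.51 ± 0.15 (adjusted p = 0.00933, limma), under the fold threshold. UTP18 was called at 3 min (1.01), with 0.76 at 30 min. The log2 fold change at 30 min was 1.43 ± 0.06 for PWP2, 1.7 ± 0.09 for DIP2 and 1.35 ± 0.07 for UTP13. As labelled PWP2 and DIP2 were called at 30 min, DIP2 had the largest value (1.15) and UTP18 the smallest (0.22), and UTP21 had 1.08.

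UTP22 encodes the central subunit of UTP-C, a module that in yeast also holds casein kinase 2. Its log2 ratios in cultures a and b were -0.93 and -0.81 at 0 min, 0.98 and 1.27 at 3 min, 0.91 and 1.03 at 7.5 min, 0.54 and 0.69 at 15 min, 0.70 and 0.69 at 30 min, 0.48 and 0.58 at 60 min, 0.22 and 0.22 at 110 min, 0.19 and 0.35 at 150 min and 0.28 and 0.24 at 300 min. In each culture the highest array was that of 3 min, and the level at 15 min was already lower than at 3 and 7.5 min in both cultures. The log2 fold change of UTP22 was 1.99 ± 0.10 (SE) at 3 min and 1.56 ± 0.10 at 30 min (adjusted p = 5.13e-08, limma). The 4 genes of casein kinase 2, a kinase with many other substrates, did not follow with the array turned: CKA1, CKA2, CKB1 and CKB2 had a median log2 fold change of -0.04 at 3 min and 0.26 at 30 min. Of these only CKA2 was called, and of these times only at 30 min, with 0.78. Both as labelled and without that array, none of the 4 passed both thresholds at 3 or 30 min, and the median at 30 min was 0.15 without it and -0.17 as labelled. UTP22 had 0.64 at 30 min as labelled and was then called at no time.

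In the Mpp10 complex, Mpp10 holds Imp3 and Imp4, and Imp3 and Imp4 help the U3 RNA to pair with the pre-rRNA. IMP3 alone rose at 30 min. Its log2 ratios in cultures a and b were -0.30 and -0.12 at 0 min, 0.89 and 0.75 at 3 min, 0.95 and 1.12 at 7.5 min, 0.92 and 0.90 at 15 min, 1.07 and 0.93 at 30 min, 0.62 and 0.62 at 60 min, 0.32 and 0.24 at 110 min, 0.26 and 0.35 at 150 min and 0.35 and 0.30 at 300 min. The cultures followed each other closely, and the fold change on the log2 scale was 1.21 ± 0.09 (SE) at 30 min (adjusted p = 1.63e-07, limma). MPP10 had the smallest change of the group and the widest gap between cultures. For MPP10 the ratios were 0.52 and -0.07 at 0 min, 1.09 and 0.72 at 3 min, 1.0 and 0.68 at 7.5 min, 0.96 and 0.48 at 15 min, 0.95 and 0.59 at 30 min, 0.27 and 0.03 at 60 min, 0.25 and -0.11 at 110 min, 0.51 and -0.29 at 150 min and 0.53 and -0.18 at 300 min. Culture a was above culture b at all 9 times, by 0.80 at 150 min and 0.71 at 300 min. Against 0 min MPP10 had 0.54 ± 0.32 at 30 min (adjusted p = 0.148, limma) and -0.05 at 300 min. IMP4 had 0.72 ± 0.10 at 30 min, past the p threshold (adjusted p = 3.36e-05, limma) but not the fold threshold. The order of MPP10 depends on how culture a is read at 0 min. As labelled it had the largest value of the group at 30 min (1.07, not called), and without that array it had 0.84, above IMP4. IMP3 was called at 30 min in all 3 readings.

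The U3 particle shares NOP1, NOP56 and NOP58 with all other box C/D small nucleolar particles, which guide methylation of RNA, while RRP9 encodes a protein specific to U3. All 4 genes rose both at 3 min and at 30 min. NOP56 had the largest change. Its log2 ratios in cultures a and b were -1.58 and -1.09 at 0 min, 0.21 and 0.36 at 3 min, 0.40 and 0.61 at 7.5 min, 0.46 and 0.76 at 15 min, 0.63 and 0.74 at 30 min, 0.26 and 0.45 at 60 min, 0.12 and 0.09 at 110 min, 0.13 and 0.27 at 150 min and 0.05 and 0.06 at 300 min. NOP56 started lowest of the group by the mean of both cultures, climbed up to 30 min in culture a and up to 15 min in culture b, and returned close to the pool by 300 min. Its log2 fold change was 1.62 ± 0.15 (SE) at 3 min and 2.02 ± 0.15 at 30 min (adjusted p = 2.37e-07, limma). RRP9 had the smallest change of the 4. Its ratios were -0.53 and -0.11 at 0 min, 0.79 and 0.94 at 3 min, 0.66 and 0.81 at 7.5 min, 0.66 and 0.78 at 15 min, 0.63 and 0.80 at 30 min, 0.29 and 0.40 at 60 min, 0.22 and 0.29 at 110 min, 0.30 and 0.53 at 150 min and 0.20 and 0.29 at 300 min. The arrays of 3 to 30 min were all above those of 60 min and later, and the log2 fold change of RRP9 at 30 min was 1.03 ± 0.13 (adjusted p = 2.15e-05, limma). NOP1, the RNA methyltransferase known as fibrillarin in animals, stood at -1.7 (culture a, turned) and -0.47 (culture b) at 0 min, the largest gap between cultures of any member at any time (1.23). It was called at all 8 later times with the array turned, with 1.78 ± 0.31 at 30 min, but its log2 fold change there was 0.08 as labelled and 1.17 without the 0 min array of culture a. NOP58 had 1.19 ± 0.24 at 30 min. Without that array all 4 genes were still called at 3 and 30 min, and NOP1 was called at 4 of the 8 later times. As labelled no gene of the group was called at any time, and the order at 30 min was another, with 0.51 for RRP9, 0.46 for NOP58 and 0.44 for NOP56.

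Bms1 is a GTPase that enters the particle bound to Rcl1, a cyclase-like protein. Both genes rose at 3 min and at 30 min. For BMS1 the log2 ratios in cultures a and b were -0.30 and -0.31 at 0 min, 0.90 and 0.58 at 3 min, 0.99 and 0.80 at 7.5 min, 1.09 and 0.80 at 15 min, 1.19 and 1.09 at 30 min, 0.50 and 0.40 at 60 min, 0.34 and 0.20 at 110 min, 0.44 and 0.03 at 150 min and 0.41 and 0.01 at 300 min. The peak lay at 30 min in both cultures, and the log2 fold change was 1.44 ± 0.17 (SE, adjusted p = 1.09e-05, limma). RCL1 lay near the pool both at 0 min and from 110 min on. Its ratios were -0.13 and 0.12 at 0 min, 0.84 and 0.81 at 3 min, 0.61 and 0.85 at 7.5 min, 0.86 and 0.84 at 15 min, 0.92 and 0.93 at 30 min, 0.41 and 0.53 at 60 min, -0.01 and 0.12 at 110 min, 0.12 and 0.22 at 150 min and 0.13 and 0.27 at 300 min. At 30 min RCL1 had a log2 fold change of 0.93 ± 0.10 (adjusted p = 5.72e-06, limma), and at 300 min 0.20. The call of RCL1 at 3 min was lost once the turned array was left out (0.71), and as labelled RCL1 was called at 30 min and BMS1 at no time.

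Enp2, Bfr2, Lcp5 and Sas10 (Utp3) form a further set of processome proteins, and SAS10 and ENP2 rose at 30 min. SAS10 had the largest change. In cultures a and b its log2 ratios were -0.32 and -0.14 at 0 min, 0.57 and 0.57 at 3 min, 0.64 and 0.71 at 7.5 min, 0.80 and 0.72 at 15 min, 1.06 and 1.01 at 30 min, 0.60 and 0.47 at 60 min, 0.36 and 0.19 at 110 min, 0.46 and 0.23 at 150 min and 0.48 and 0.18 at 300 min. SAS10 kept climbing up to 30 min, where it stood at 1.06 and 1.01, against 0.57 and 0.57 at 3 min. The log2 fold change against 0 min was 0.80 ± 0.11 (SE) at 3 min and 1.26 ± 0.11 at 30 min (adjusted p = 8.47e-07, limma). BFR2 had the smallest change of the group and an earlier peak. Its ratios were 0.25 and 0.42 at 0 min, 1.24 and 1.05 at 3 min, 0.97 and 1.06 at 7.5 min, 1.05 and 0.96 at 15 min, 0.97 and 0.93 at 30 min, 0.54 and 0.45 at 60 min, 0.37 and 0.32 at 110 min, 0.51 and 0.44 at 150 min and 0.37 and 0.29 at 300 min. BFR2 was above the pool at 0 min with the array turned, had its highest mean at 3 min, and was then called at that time only, with 0.81 ± 0.08 there and 0.62 ± 0.08 at 30 min (adjusted p = 3.34e-05, limma). Leaving that array out, BFR2 was called at no time (0.72 at 3 min), and as labelled it was called at 3, 7.5 and 15 min (1.06 at 3 min). LCP5 was called at no time in any of the 3 readings and had 0.68 ± 0.09 at 30 min with the array turned. ENP2 had 1.18 at 30 min without that array, where it was not called, and 1.19 as labelled, the largest of the 4 in both.

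Noc4 (Utp19) joins with Nop14, Emg1 methylates a pseudouridine of 18S rRNA, and Enp1 stays with the pre-40S particle until late. All 3 genes rose at 3 and 30 min. ENP1 had the largest change. Its log2 ratios in cultures a and b were -0.80 and -0.02 at 0 min, 0.72 and 1.03 at 3 min, 0.73 and 1.16 at 7.5 min, 0.80 and 1.18 at 15 min, 0.98 and 1.49 at 30 min, 0.54 and 0.83 at 60 min, 0.35 and 0.76 at 110 min, 0.13 and 0.85 at 150 min and 0.13 and 0.66 at 300 min. Culture b was above culture a at every time, by 0.78 at 0 min and 0.72 at 150 min, and the log2 fold change of ENP1 at 30 min was 1.64 ± 0.32 (SE, adjusted p = 0.000741, limma). EMG1 had the smallest change of the 3 at 30 min. For EMG1 the ratios were -0.83 and -0.37 at 0 min, 0.29 and 0.48 at 3 min, 0.36 and 0.66 at 7.5 min, 0.23 and 0.50 at 15 min, 0.40 and 0.57 at 30 min, 0.21 and 0.28 at 60 min, 0.22 and 0.32 at 110 min, 0.03 and 0.45 at 150 min and 0.08 and 0.36 at 300 min. In the turned reading EMG1 was called at all 8 later times, with a log2 fold change of 1.09 ± 0.18 at 30 min (adjusted p = 0.000232, limma) and 0.82 at 300 min. Once that array was left out, EMG1 was called at 2 times, 7.5 and 30 min, and as labelled at none, with 0.26 at 30 min. NOC4 had 1.2 ± 0.16 at 30 min and 0.30 at 300 min. NOC4 alone of the 3 was called at 3 min without that array and at 30 min as labelled, where it also had the largest value (0.90, with 0.84 for ENP1).

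The other 10 members all rose at 3 min and at 30 min. They are the WD-repeat genes UTP7 and SOF1, UTP14, whose protein activates a helicase of the particle, UTP20, a giant helical-repeat protein, UTP23, UTP25, UTP30, the RNA-binding protein gene KRR1, the helicase gene ROK1 and RRP5. RRP5 encodes an RNA-binding protein that works in the assembly of both subunits, and it had the largest change of the 10. Its log2 ratios in cultures a and b were -1.16 and -0.86 at 0 min, 0.51 and 0.82 at 3 min, 0.87 and 1.09 at 7.5 min, 0.75 and 1.11 at 15 min, 1.04 and 1.40 at 30 min, 0.46 and 0.86 at 60 min, 0.27 and 0.53 at 110 min, 0.15 and 0.49 at 150 min and 0.19 and 0.42 at 300 min. It was higher in both cultures at 30 min than at any other time, with a log2 fold change of 2.23 ± 0.20 (SE, adjusted p = 1.28e-06, limma) and 1.31 ± 0.20 at 300 min. UTP23, a nuclease-fold protein gene, had the smallest change of the 10. Its ratios were -0.25 and 0.01 at 0 min, 0.92 and 0.88 at 3 min, 0.83 and 1.04 at 7.5 min, 0.83 and 0.88 at 15 min, 0.84 and 0.83 at 30 min, 0.61 and 0.65 at 60 min, 0.27 and 0.28 at 110 min, 0.25 and 0.38 at 150 min and 0.15 and 0.34 at 300 min. The level was flat from 3 to 30 min, and the log2 fold change was 0.96 ± 0.10 at 30 min (adjusted p = 3.33e-06, limma). UTP20 stood at 0.92 (culture a) and 1.21 (culture b) at 60 min, the highest level of any member on both arrays of that time. All 10 were also called at both times with that array left out. As labelled UTP23 alone was called at 3 min and UTP20 alone at 30 min, and UTP20 then had the largest value at 30 min (1.31) and KRR1 the smallest (0.68). In the turned reading the remaining members of the set lay between 1.11 (UTP30) and 1.75 (UTP14) at 30 min.

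Between successive times from 3 min on no member passed both thresholds. The shares of all genes called higher or lower were 0.361% for 7.5 min against 3 min, 0.588% for 15 min against 7.5 min, 3.62% for 30 min against 15 min, 6.47% for 60 min against 30 min, 5.03% for 110 min against 60 min, 0.038% for 150 min against 110 min and 0.247% for 300 min against 150 min. At an unadjusted p under 0.05 (limma) the fall was spread over 2 steps. At 60 min against 30 min, 21 members were lower, beside 1284 of all 5270 genes. At 110 min against 60 min, 15 members were lower, beside 814 of all genes. At 300 min against 150 min, 1 member was lower, beside 234 of all genes. In the early steps 3 members were higher at 7.5 min than at 3 min, beside 460 of all genes. At 15 min against 7.5 min 2 members were lower, beside 501, and at 30 min against 15 min 2 were higher, beside 651. The shares of members in these early steps were thus not above those of all genes. The members' median log2 fold change was -0.40 at 60 min against 30 min and -0.25 at 110 min against 60 min, and within 0.09 of 0 at the other 5 steps. UTP15 and BMS1 had the largest falls of the first of these steps, both -0.69, and UTP5 and UTP18 the smallest, both -0.05.

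Over the whole span the fall passed the test for some members. The fold change at 300 min against 30 min uses no 0 min array, but the spread behind its p-values is shared by all arrays. At 300 min 8 of the 40 were called lower than at 30 min, against 6.58% of all genes. These were DIP2 (-0.95 ± 0.09, SE), BMS1 (-0.93 ± 0.17), RRP5 (-0.92 ± 0.20), NOC4 (-0.90 ± 0.16), UTP15 (-0.90 ± 0.09), UTP20 (-0.84 ± 0.17), UTP10 (-0.81 ± 0.08) and ROK1 (-0.77 ± 0.11), with adjusted p (limma) between 5.82e-06 for DIP2 and 0.00275 for RRP5. For DIP2 the log2 ratios were 0.25 (culture a) and 0.36 (culture b) at 300 min, against 1.14 and 1.37 at 30 min. UTP15 had 0.20 and 0.20 at 300 min, against 1.05 and 1.14 at 30 min. The groups of arrays did not come near each other in either gene. All 40 members were lower at 300 min than at 30 min in both cultures, with a median log2 fold change of -0.63, and 26 of them passed the p threshold alone. The share of all genes at that threshold alone is not given here. At an unadjusted p under 0.05 (limma) 33 members were lower, beside 1425 of all 5270 genes. The smallest differences belonged to UTP6 (-0.14 ± 0.15), NOP58 (-0.24 ± 0.24) and EMG1 (-0.27 ± 0.18). Without the 30 min array of culture b 5 members were called, and 1 was with culture a at 0 min read as labelled, which widens the spread shared by all times. With each array shifted to its external control spots the median of all genes became 0.22 and that of the members -0.41. After this shift limma called no member, though 25 had an unadjusted p under 0.05. The share of all genes at such a p after the shift is not given here.

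**Figure D3:**
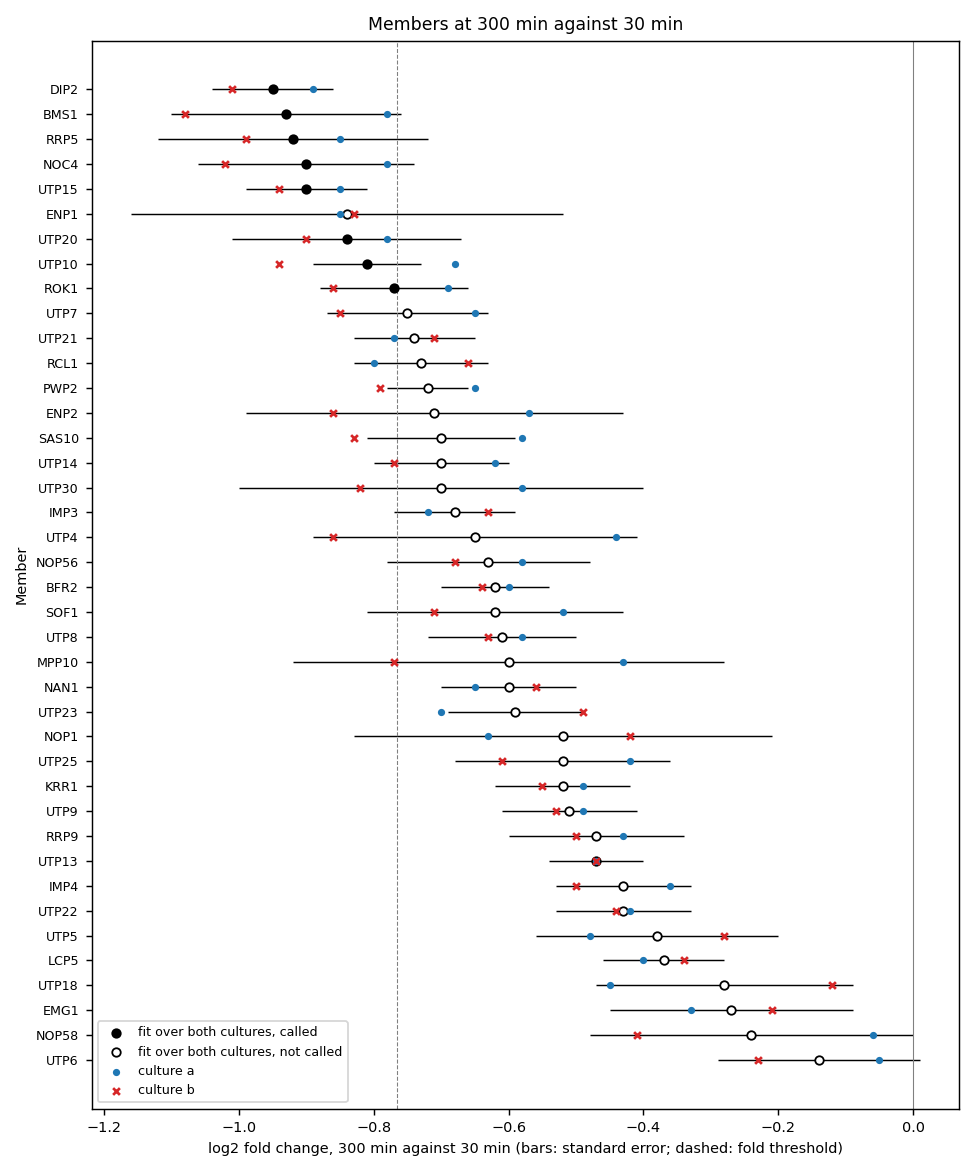
log2 fold change at 300 min against 30 min (x axis) of each member (y axis, largest fall at the top), from the fit over both cultures (circles, filled where called, bars for the standard error) and in culture a (blue dots) and culture b (red crosses) alone, with the fold threshold dashed. All 40 members lie below 0 in both cultures, and 8 circles are filled.

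The return was not complete in every member, by this scaling. At 300 min 13 members (32.5%) were still called higher than at 0 min, against 19.3% of all genes. These were UTP4, UTP8, UTP10, UTP13, UTP21, UTP22, NOP1, NOP56, NOP58, EMG1, UTP14, UTP25 and RRP5. All of these but NOP58 were called at each of the 8 later times. They include 3 of the 4 genes of the U3 particle, 3 of 7 of UTP-A and 2 of 6 of UTP-B with the array turned, and none of the Mpp10, Bms1-Rcl1 or Enp2-Bfr2-Lcp5-Sas10 sets. Without the 0 min array of culture a 9 members were called at 300 min, with NOP56 alone of the U3 particle and with EMG1 and UTP25 no longer called, and 8 of the 13 were called at each later time. The share of members called at 300 min then lay closer to that of all genes. As labelled none of the 13 was called at any time. The members called at no time with the array turned were 6, namely UTP5, NAN1, UTP6, MPP10, IMP4 and LCP5. At 300 min UTP5 had a log2 fold change of -0.24 ± 0.18 and NAN1 of -0.08 ± 0.10 against 0 min, neither past the test. With the shift to the external control spots 34 members were called higher at 300 min, where the median of all genes was 0.68. That median is close to the fold threshold (0.766 on the log2 scale), so the 34 calls are not read as particular to the members.

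Genes that act in neighbouring steps were set beside the members. Of 39 other 40S assembly factors 22, 26 and 11 were called higher at 3, 30 and 300 min, and 10 were called lower at 300 min than at 30 min. With culture a left out at 0 min the counts of these against 0 min were 21, 25 and 9, and as labelled 7, 6 and 0. Of 68 factors of 60S assembly, which build the large subunit, 47, 54 and 23 were called higher at these times and 13 were lower at 300 min than at 30 min. Without that array 44, 49 and 16 were called higher, and as labelled 8, 18 and 0. With the array as labelled the fit called 3 of the other 40S factors and 1 of the 60S factors lower at 300 min than at 30 min. Median log2 fold changes at 300 min against 30 min were -0.63 for the members, -0.57 for the other 40S factors and -0.63 for the 60S factors, and 0.01 over all genes. The genes of the ribosomal proteins themselves, the parts that these factors assemble, had positive medians there. For the 53 RPS genes of the small subunit the median was 0.27 and for the 67 RPL genes of the large subunit 0.26, with 0 called lower in each list by limma and 0 lower at an unadjusted p under 0.05. Against 0 min the direction of the RPS genes changed sign with the reading of culture a at 0 min. In the turned reading 21, 28 and 30 of the 53 were called higher at 3, 30 and 300 min, with median log2 fold changes of 1.16, 1.45 and 1.61. Leaving the array out, 10, 16 and 23 were called higher, with medians of 0.44, 0.70 and 0.90, and as labelled limma called none higher and 1 lower, at 30 min, with medians of -1.04, -0.94 and -0.61. At an unadjusted p under 0.05, 0 were higher and 9, 8 and 6 lower as labelled. The members' medians were positive in all 3 readings. The medians of the RPS genes at 0 min differed between the cultures, with -2.50 in culture a (turned) and -0.95 in culture b. These lists were compared by counts and medians only, and many ribosomal protein genes come as near-identical pairs that 1 probe may not separate.

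**Figure D4:**
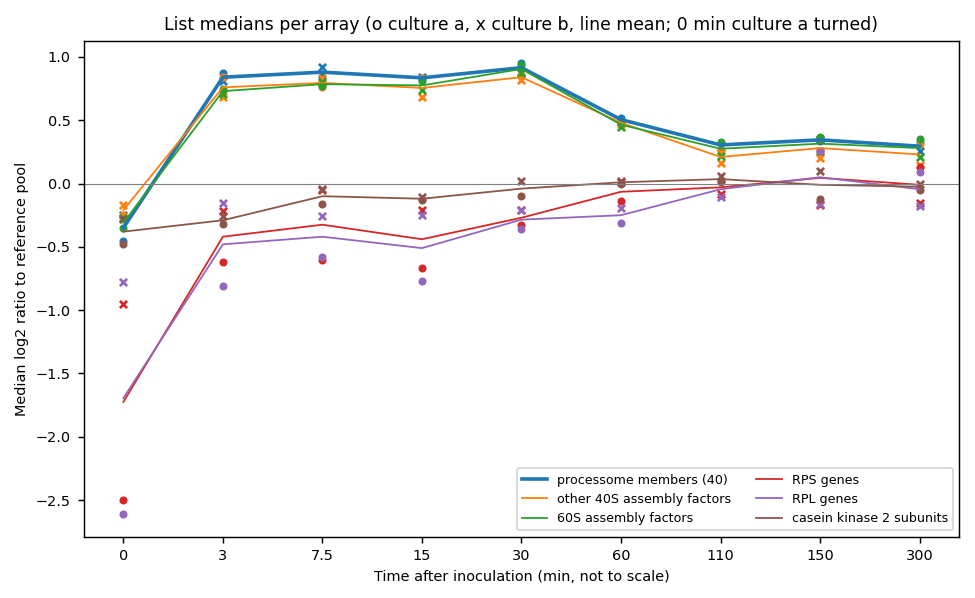
Median log2 ratio to the reference pool (y axis) of the 40 members and 5 other lists at the 9 times (x axis, evenly spaced, in min), with culture a as circles, culture b as crosses and their mean as a line, 0 min of culture a turned. The members' medians lie between 0.81 and 0.95 from 3 to 30 min and between 0.26 and 0.52 from 60 min on, while those of the RPS genes stay under 0 up to 30 min.

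**Figure D5:**
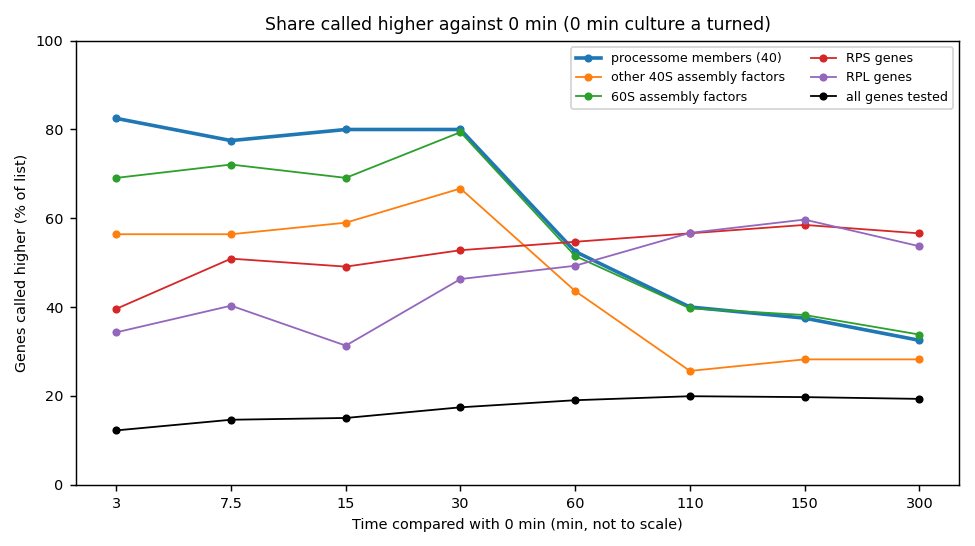
Share of genes called higher than at 0 min (y axis, % of the list) at the 8 later times (x axis, evenly spaced, in min) for the 40 members, 4 other lists and all genes tested, with culture a at 0 min turned. The share of all genes called lies between 12.2% and 19.9%, and 33 of the 40 members are called at 3 min and 13 at 300 min.

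Cultures a and b differed by a median over the members of 0.10 to 0.23 on the log2 scale, depending on the time, which is less than the step of the members' median between 0 and 3 min. The largest gaps after 0 min were 0.86 for UTP30 and 0.80 for MPP10, both at 150 min. UTP30 had 0.73 (culture a) and -0.13 (culture b) at 150 min, and UTP4, NOP58 and ENP2 also lay higher in culture a there, whereas ENP1 lay higher in culture b. In these genes the levels of the cultures at 150 min lie on opposite sides of the members' median, and culture and dye cannot be told apart.

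Over the 8 times after 0 min the members followed their own mean closely. Pearson's r of a member with the mean of all 40, across the 8 means over cultures, was between 0.821 (NOP58) and 0.997 (ENP2) with a median of 0.966, while the median over all genes tested was 0.0428. The mean contains each member, and successive times share cultures, so these values are a description. Outside the members the 10 most alike genes were DHR2, POG1, RRP6, RRP17, PUS6, HCA4, MRD1, URK1, STE20 and SNU71. DHR2 (r = 0.9975) and HCA4 (0.9955) encode helicases of pre-rRNA processing, MRD1 (0.9947) an RNA-binding protein of the same particle, and RRP6 (0.996) a nuclear exosome nuclease. Of the 100 genes most alike, 12 were members, 13 other 40S factors and 15 60S factors. Likeness after 0 min did not carry over to the comparison with 0 min in every gene: POG1 had a log2 fold change of -0.20 and SNU71, of the U1 splicing particle, one of 0.06 at 30 min, where DHR2 had 1.5.

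In the gene order of the R64 assembly, the members lay on 14 chromosomes, and no pair of them was adjacent. In 4 places a member had a 60S assembly gene as its neighbour. LCP5 and NSA2 diverge from a shared upstream region, and they had 0.68 and 1.79 at 30 min against 0 min. UTP9 and RIX1 run in tandem with 1.0 and 1.72, and UTP13 and RSA3 in tandem with 1.35 and 0.93. NOC4 and RRP15 converge, with 1.2 and 0.38. With the array turned, at 30 min LCP5 and RRP15 were not called, and the other genes of these pairs were.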

How the data were processed

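RNA of 2 wild-type cultures at 9 times was measured on 18 arrays, each with the reference pool in the other dye. The authors deposited scanner files, with the mean intensity in each dye at 15552 spots, and their own normalised log2 ratios. Their Methods name print-tip loess without background subtraction, and the processing notes limma 2.12.0. No genome build is stated there.

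Here print-tip loess (span 0.4) was run on the deposited intensities in limma 3.58.1 (R 4.3.3), with control spots and spots above 32768 at weight 0, and duplicate spots were averaged. Median intensities were 709 to 1518 in Cy5 and 549 to 1209 in Cy3. A gene name was found for 5326 of 6388 gene probes, and 5270 genes were tested after leaving out mitochondrial, transposable and second probes. A coefficient for each time was fitted (lmFit, eBayes, 9 residual degrees of freedom), with Benjamini-Hochberg adjustment over all genes tested. The model was tested on simulated data first.

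The members, the gene lists and the rule for the genes named (all 40 members, values on every array for the largest and smallest change at 30 min in each group, and the 10 most alike genes) were chosen with earlier results of these data known. The same cultures were sampled at each time, so the culture letter pairs the arrays; it entered as a block in an alternative. Promoter sequences were not analysed here. Alternatives are given in the closing section.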

Additional observations from a re-analysis of the deposited data

Results flagged for a closer look

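Read by their dye labels, the 0 min arrays gave 34 of the 40 members opposite signs, with a median log2 ratio of 0.45 in culture a and -0.25 in culture b. This difference was not tested.

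At 300 min against 0 min, with culture a at 0 min turned, MPP10 had a log2 fold change of 0.01 in culture a and -0.11 in culture b, and BFR2 had 0.12 in culture a and -0.13 in culture b. The cultures had opposite signs in both genes, the difference was not tested, and all these values are small beside the gaps between cultures.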

How the results depend on the processing

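Against 0 min, 33, 32 and 13 members were called higher at 3, 30 and 300 min, and 8 were called lower at 300 min against 30 min. With culture a at 0 min as labelled these counts were 5, 8, 0 and 1. The array as labelled together with the culture as a replicate block (a joint setting chosen after seeing the data, as were the other joint settings with this array as labelled) gave 11, 13, 0 and 3. As labelled with a shift to the external control spots, all 4 counts were 0, with 2, 1, 0 and 0 members at an unadjusted p under 0.05. As labelled in a fit of only the times compared, the 3 counts against 0 min were 0, with 2, 2 and 0 members at such a p. With the array turned, fitting only the times compared gave 20 at 3 min and 8 at 300 min, not set against a share of all genes. The external control shift rests on 6 bright probes, a limit set after seeing the data. It gave 34 higher at 300 min, where the median of all genes rose too, and 0 lower at 300 min against 30 min. Over all genes it moved the median log2 fold change to 0.28, 0.43 and 0.68 at 3, 30 and 300 min against 0 min and to 0.22 at 300 min against 30 min, beside 1.42, 1.68, 1.25 and -0.41 for the members, whose median stayed above that of all genes against 0 min and below it at 300 min against 30 min. At an adjusted p under 0.05 with no fold threshold, 32 members were higher at 300 min and 32 lower at 300 min against 30 min. Many other genes pass a threshold this loose. At an unadjusted p under 0.05 (limma), 32 members were higher at 300 min, beside 1995 of all 5270 genes. At 300 min against 30 min 33 members were lower at such a p, beside 1425 of all genes. Leaving out single arrays gave 28 to 32 at 3 min, 30 to 32 at 30 min, 9 to 16 at 300 min and 5 to 10 at 300 min against 30 min, where 5 is the count without culture b at 30 min. The replicate block on the pairing of the cultures, with the array turned, gave 34, 32, 14 and 9. The deposited table, normexp, a single loess curve per array, dim spots left out and saturated spots left out each stayed within 1.5 times the first counts given. The causes were not tested. Apart from the 3 readings of the 0 min array of culture a, shares of all genes called in these alternatives are not given here. Their counts are thus not set against a background. The 2 arrays per time limit all of these counts.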
